A study of Mus musculus with 6 samples.

Results

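Htr4, Htr6 and Htr7 encode the serotonin receptors that couple to the stimulatory G protein Gs, and they were taken by symbol, 3 of the 32531 gene symbols counted in each library. Their levels were compared between ribosome-bound RNA and input RNA of mouse cerebral cortex. All 3 had enough reads to pass the filter on low counts, as did 16506 genes in all. Htr4 was higher in the ribosome-bound RNA than in the input, Htr7 was higher by a smaller factor, and no difference was detectable for Htr6.

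Serotonin acting on these receptors raises cyclic AMP through Gs and adenylyl cyclase, and cyclic AMP in turn activates protein kinase A and the exchange factors called Epac. Protein kinase A phosphorylates ion channels and the transcription factor CREB, while phosphodiesterases break cyclic AMP down. In the cortex the Htr4 receptor is known for raising pyramidal cell excitability and is studied in memory and mood, the Htr6 receptor for its place on neuronal primary cilia and as a drug target in cognition, and the Htr7 receptor for roles in circadian timing, neurite growth and mood.

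The samples came from untreated adult mice of a single transgenic line, Htr4-EGFP/Rpl10a (ES1299), in which the Htr4 promoter drives the ribosomal protein Rpl10a fused to the fluorescent protein EGFP. Every library, input included, carries this transgene, and there was no line without it. Polysomes holding the tag were captured from dissected cortex with anti-EGFP antibodies, which gave the IP libraries (n = 3), and RNA labelled as input gave the reference (n = 3). The sources used here give neither the exact age, the sex nor the number of animals. Nor do they say which part of Htr4 the transgene carries, so reads from it and reads from the native gene cannot be told apart. All IP libraries carried one library index and all inputs another, so index and group cannot be told apart either.

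Between 37696125 and 52360452 reads were assigned to genes in the inputs, and between 53147173 and 67559533 in the IPs. Levels are given in CPM, the reads of a gene scaled to a common library total, here after TMM scaling (trimmed mean of M values). On this scale 3 reads correspond to 0.0430 to 0.0817 CPM. Reads that the counting assigned to no feature made up 16.7 to 18.1% of each input file and 8.60 to 8.92% of each IP file. The gene models come from GENCODE M21 on GRCm38. No other model in that annotation overlaps any of the 3 genes, and the sources used here do not give the strand setting of the counting.

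The driver gene Htr4 (ENSMUSG00000026322.9) occupies positions 62324204 to 62496577 of chromosome 18, on the plus strand. The model spans 172.4 kb with 4.91 kb of exon, and its transcripts have at most 7 exons. The input replicates 1 to 3 held 300, 385 and 382 Htr4 reads, and the corresponding IP libraries held 1039, 1577 and 1258. In CPM these were 8.17, 7.65 and 7.82 in input and 18.6, 22.6 and 18.4 in IP. Every IP library lay above every input library, and replicate 2 was the highest of the IP libraries. The mean went from 7.88 ± 0.265 to 19.9 ± 2.36 CPM (SD, n = 3 each). Htr4 rose 2.52-fold, with a 95% interval of 1.97 to 3.23 (log2 fold change 1.34, SE 0.16, adjusted p = 5.7e-05, edgeR quasi-likelihood test with Benjamini-Hochberg adjustment). Replicate number equals sequencing lane in both groups, and the log2 difference was 1.19, 1.56 and 1.24 in lanes 1, 2 and 3. Of the tested genes, 2.51% had a larger log2 fold change than Htr4, among them 290 genes called higher in IP. In tissue RNA, fewer cells of a type and less RNA per cell cannot be told apart, and this holds for each level given here.

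The input libraries were close to each other at this gene and the IP libraries less so. The coefficient of variation of Htr4 was 3.36% in input, where counting error alone gives 5.30%. It was 11.9% in IP, where counting error alone gives 2.78%. The spread among IP libraries thus exceeded counting error, while that among inputs did not.

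Htr7 (ENSMUSG00000024798.15), the receptor gene with a role in circadian timing, occupies positions 35958734 to 36057507 of chromosome 19, on the minus strand. The model spans 98.8 kb with 3.40 kb of exon, and 3 of its 6 transcripts are coding. Its reads were 189, 309 and 245 in the inputs, by replicate, and 423, 635 and 578 in the IPs. In CPM these were 5.15, 6.14 and 5.01 in input and 7.59, 9.10 and 8.47 in IP. The groups did not overlap, and the highest input library, replicate 2, lay below the lowest IP library, replicate 1. Htr7 rose 1.54-fold (95% interval 1.13 to 2.11), from 5.43 ± 0.615 to 8.39 ± 0.762 CPM (SD, n = 3 each; log2 fold change 0.63, SE 0.21, adjusted p = 0.029, edgeR). The log2 difference was 0.56, 0.57 and 0.76 in lanes 1, 2 and 3. A larger log2 fold change was found for 16.5% of the tested genes.

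The call of Htr7 was close to the threshold. It was lost when input replicate 1 (adjusted p = 0.074), input replicate 3 (adjusted p = 0.085) or IP replicate 2 (adjusted p = 0.071) was left out, and with upper-quartile scaling (log2 fold change 0.52, adjusted p = 0.064, edgeR). Its direction was the same in all 18 alternatives.

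Htr6 (ENSMUSG00000028747.10), the receptor gene known from primary cilia, occupies positions 139061108 to 139075570 of chromosome 4, on the minus strand. Its model is the shortest of the 3, with a span of 14.5 kb and 2.34 kb of exon. GC content of the longest transcript was highest for Htr6 (63.1%, against 49.2% for Htr7 and 44.9% for Htr4). Only 42, 13 and 36 reads fell on Htr6 in the inputs, by replicate, and 32, 44 and 36 in the IPs. In CPM these were 1.14, 0.258 and 0.737 in input and 0.574, 0.631 and 0.527 in IP. All 3 IP libraries lay inside the range of the inputs, whose replicate 1 was the highest of the 6 libraries and replicate 2 the lowest. The mean was 0.713 ± 0.443 CPM over the inputs and 0.577 ± 0.0518 over the IPs (SD, n = 3 each). Htr6 did not pass the test (log2 fold change -0.30, SE 0.71, adjusted p = 0.76, edgeR). The 95% interval of the fold was 0.278 to 2.39, so both a fall and a rise within that range are compatible with these libraries. Without input replicate 1 the estimate turned positive (log2 fold change 0.24, adjusted p = 0.85).

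The uncertainty of Htr6 lay in the input libraries. Its coefficient of variation there was 62.2%, where counting error gives 18.2%, and in IP it was 8.98%, where counting error gives 16.4%. The exact 95% counting interval was 0.824 to 1.55 CPM in input replicate 1 and 0.138 to 0.442 in input replicate 2, so these libraries differed by more than counting error. Such intervals cover counting error only, since PCR copies are not independent molecules.

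Of the 3 receptor genes, 2 were called higher in IP and 0 lower. Over all tested genes, 21.3% were called higher and 23.4% lower (3523 and 3864 genes). An offset for gene length and GC content moved this split to 5742 and 2016, and its robust form to 4047 and 2543, while Htr4 and Htr7 were called higher under both. The median log2 fold change of the 3 was 0.63, against -0.02 over all tested genes.

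**Figure D1:**
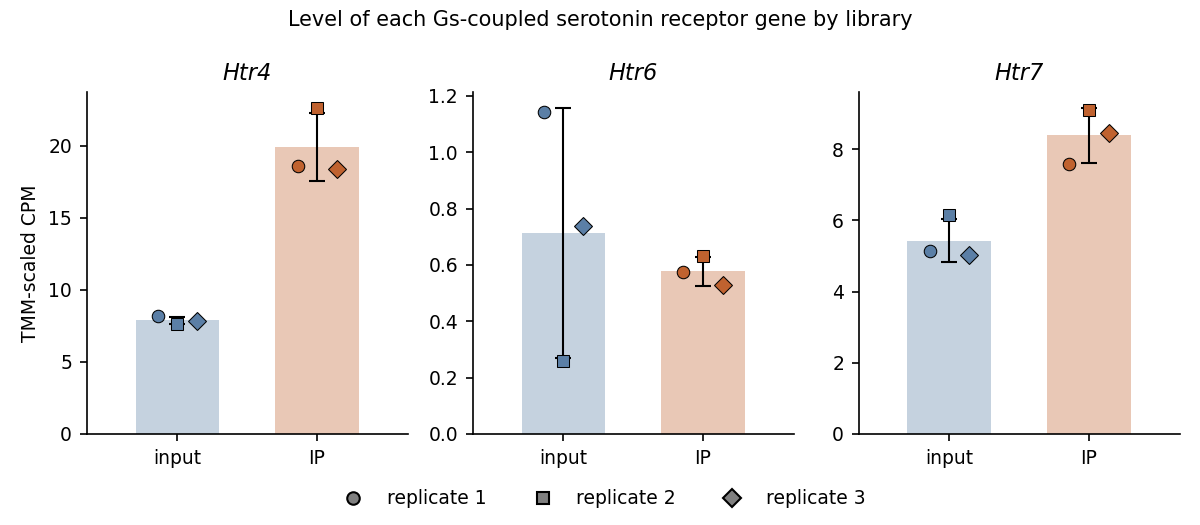
TMM-scaled CPM (vertical axes, each starting at 0) of Htr4, Htr6 and Htr7 in input and IP. Points are libraries with their replicate number as shape, bars are means and error bars are SD over 3 libraries; the groups are apart for Htr4 and Htr7, and the IP libraries of Htr6 fall within its inputs, which run from 0.258 to 1.14 CPM.

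Whether the receptors shifted against each other was examined with ratios of their reads within a library, in which library size cancels. Htr4 had 1.59, 1.25 and 1.56 reads per Htr7 read in input and 2.46, 2.48 and 2.18 in IP. The IP ratios were all above the input ratios, by a factor of 1.63 (log2 difference 0.70, two-sided exact permutation p = 0.1, 0.15 adjusted over 3 pairs). A p of 0.1 is the smallest that 3 against 3 libraries allow, so no pair could pass the threshold. Htr4 had 7.14, 29.6 and 10.6 reads per Htr6 read in input and 32.5, 35.8 and 34.9 in IP. These groups did not overlap either, although input replicate 2, with its 13 Htr6 reads, came close to the IP values (log2 difference 1.40, exact permutation p = 0.1, adjusted 0.15). Htr6 reads per Htr7 read were 0.222, 0.0421 and 0.147 in input and 0.0757, 0.0693 and 0.0623 in IP. They overlapped between the groups (log2 difference -0.70, exact permutation p = 0.4, adjusted 0.4).

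Levels of different genes were compared per kb of exon. In input Htr4 and Htr7 were level, with 1.61 ± 0.0540 and 1.60 ± 0.181 CPM per kb, and Htr6 stood at 0.305 ± 0.189 (SD, n = 3 each). In IP Htr4 reached 4.05 ± 0.480, Htr7 2.47 ± 0.224 and Htr6 0.247 ± 0.0221 CPM per kb. As shares of the summed per-kb level of the 3 genes, Htr4 made up 45.8% ± 1.17 in input and 59.8% ± 1.59 in IP. The share of Htr7 was 45.6% ± 5.62 and 36.5% ± 1.72, and that of Htr6 was 8.60% ± 5.11 and 3.65% ± 0.226. The order of Htr4 and Htr7 in input depends on the length used: per kb of coding sequence Htr4 had 5.98 ± 0.201 CPM and Htr7 3.65 ± 0.413, and their libraries did not overlap.

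Among all 14 serotonin receptor genes in the files, Htr4 ranked 6 in input and 4 in IP by mean CPM per kb of exon. In input the genes above it were Htr5a (8.47), Htr1a (4.85), Htr2a (4.48), Htr1f (3.14) and Htr2c (2.79 CPM per kb). The libraries of Htr2c did not overlap those of Htr4, whereas Htr4 and Htr7, its neighbour below, did. In IP the genes above Htr4 were Htr2c (11.1), Htr1a (10.5) and Htr5a (7.60), and its libraries overlapped those of Htr3a (3.82), the next gene below. Htr7 ranked 7 in input, where it overlapped Htr3a (1.34), and 9 in IP, where it overlapped Htr5b (2.50) above it and lay clear of Htr1d (1.74) below. Per kb of coding sequence it ranked 7 in both groups. Htr6 ranked 13 in input and 12 in IP. In IP its libraries lay below all those of Htr1b (0.837) and above all those of Htr2b (0.0556).

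**Figure D2:**
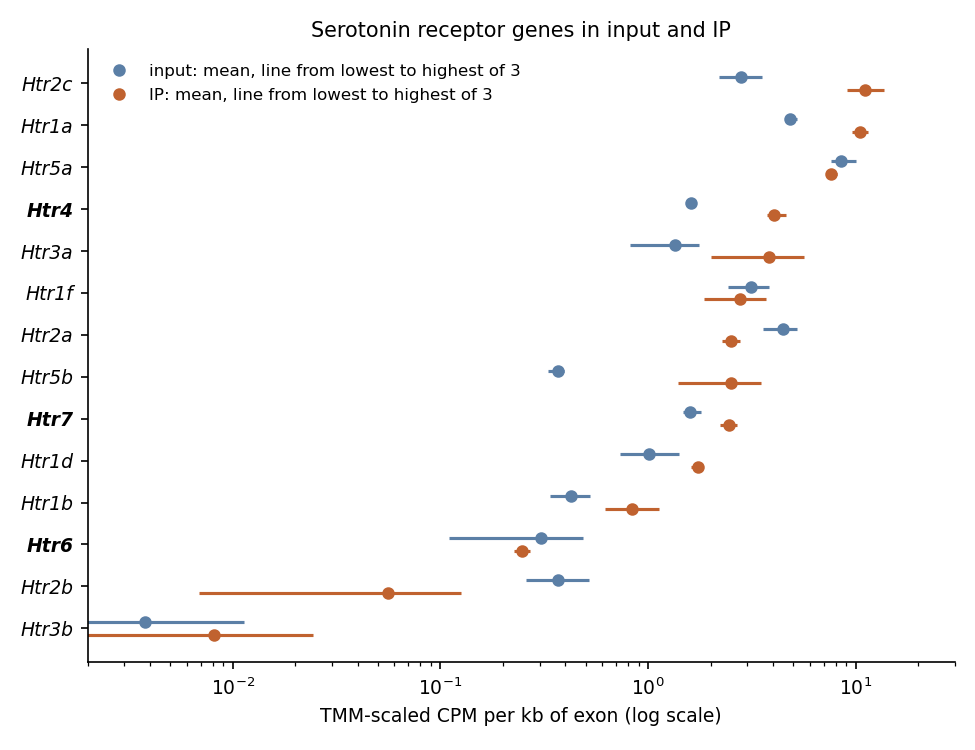
Mean TMM-scaled CPM per kb of exon (horizontal log axis) of the 14 serotonin receptor genes in input and IP, ordered by the IP mean, with lines from the lowest to the highest of 3 libraries. Htr4 sits at 1.61 in input and 4.05 in IP, Htr7 at 1.60 and 2.47, and Htr6 is low in both; lines of Htr3b that reach the left edge end at 0.

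The receptor genes of the other coupling classes moved in both directions. Of these 11, 10 were tested, and 6 were called higher in IP and 2 lower, beside 21.3% and 23.4% over all tested genes. The median log2 fold change of the 10 was 0.88. Leaving out IP replicate 2, input replicate 2 or input replicate 3 gave 4 higher and 1 lower, and leaving out IP replicate 3 or input replicate 1 gave 5 and 1. Among the receptors that couple to the inhibitory protein Gi, Htr5b rose with a log2 fold change of 2.77, Htr1a with 1.11, Htr1b with 0.97 and Htr1d with 0.78. Htr1f (-0.18, adjusted p = 0.63) and Htr5a (-0.16, adjusted p = 0.36, edgeR) did not pass. Among the Gq-coupled receptors, Htr2c rose (1.99), Htr2a fell (-0.83) and Htr2b fell (-2.73), the last on 25 to 56 reads in each input and 1 to 15 in each IP. Htr3a, a subunit of the serotonin-gated channel, rose from 2.80 ± 1 to 7.97 ± 3.76 CPM, and its partner subunit Htr3b, with 0 to 4 reads per library, was not tested. The calls of Htr1b (adjusted p = 0.043), Htr1d (adjusted p = 0.04993) and Htr2b (adjusted p = 0.036, edgeR) were each lost in 5 to 8 alternatives, with adjusted p of up to 0.16, 0.16 and 0.14. Leaving out any 1 input library ended the calls of Htr1b and Htr2b, and leaving out any 1 IP library ended that of Htr1d. In the main test the log2 fold change of Htr4 (1.34) lay between those of Htr3a (1.52) and Htr1a (1.11). With the offset for length and GC content Htr4 was above Htr3a (1.67 and 1.55), as it was without IP replicate 3 (1.40 and 1.14). These differences between genes were not tested.

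Of 8 tested genes that make, carry and break down serotonin, 1 was higher in IP and 2 were lower, beside 21.3% and 23.4% over all tested genes (median log2 fold change -0.19, with a range of -0.44 to 0.13 over the alternatives). Slc22a3, a low-affinity uptake transporter for monoamines, rose from 1.52 ± 0.922 to 5.63 ± 1.08 CPM. Maob, a monoamine oxidase, fell from 13.6 ± 1.55 to 6.99 ± 2.95 CPM, and Slc18a2, the vesicular monoamine transporter, fell from 10.9 ± 0.726 to 6.88 ± 1.30. The call of Slc18a2 ended in 6 alternatives. The serotonin transporter gene Slc6a4, a marker of serotonin neurons, is listed at 0 reads in all 6 libraries.

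Both alpha subunits through which these receptors can stimulate adenylyl cyclase rose. Gnas, which encodes Gs alpha, went from 1041 ± 76.1 to 1574 ± 54.4 CPM (log2 fold change 0.60, adjusted p = 0.00013, edgeR). Gnal, which encodes the related Golf alpha of olfactory and striatal neurons, went from 474 ± 6.42 to 679 ± 99.4 CPM (0.52, adjusted p = 0.0015, edgeR). Both were called higher, beside 21.3% of all tested genes, and every IP library exceeded every input for both. Of 14 beta and gamma subunit genes, 6 were higher and 3 lower (median 0.29), beside 21.3% and 23.4% over all tested genes. Gng7, the gamma subunit that assembles with Golf in striatum, rose from 74.3 ± 8.40 to 205 ± 23.8 CPM, and Gng3, a gamma subunit of neurons, from 369 ± 12.4 to 755 ± 82.9.

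Of 8 tested adenylyl cyclase genes, 3 were higher and 3 lower, beside 21.3% and 23.4% over all tested genes. The counts were 3 and 0 with the offset for length and GC content, 1 and 3 with upper-quartile scaling, and 1 and 2 without input replicate 2. Over all genes the offset gave 5742 higher and 2016 lower of 14494 with a model. Upper-quartile scaling gave 2741 and 4483 over all genes, and leaving out input replicate 2 gave 2673 and 3165. The list had a median log2 fold change of 0.09 that ran from -0.23 to 0.31 over the alternatives. Adcy5, the main cyclase of striatum, rose from 51.1 ± 4.49 to 78.2 ± 10.5 CPM and Adcy8, a calcium-stimulated cyclase, from 17.2 ± 0.216 to 23.7 ± 2.45. The call of Adcy8 was lost without input replicate 2 (adjusted p = 0.065, edgeR) and with upper-quartile scaling (adjusted p = 0.057, edgeR). Adcy1, another calcium-stimulated cyclase and the most abundant of the list, fell from 734 ± 90.7 to 490 ± 85.9 CPM (log2 fold change -0.58, adjusted p = 0.003, edgeR). With an offset for gene length and GC content, the call of Adcy1 ended (-0.16, adjusted p = 0.23, edgeR). Adcy7 fell from 2.58 ± 0.614 to 1.04 ± 0.223 CPM, a call that ended in 6 alternatives.

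The list of protein kinase A and Epac genes, which includes the kinase inhibitor gene Pkib, was mostly higher. Of 11 protein kinase A and Epac genes, 8 were higher and 1 lower, beside 21.3% and 23.4% over all tested genes. The list median log2 fold change was 0.42, from 0.31 to 0.70 over the alternatives. Prkaca, a catalytic subunit, rose from 215 ± 8.24 to 426 ± 41.8 CPM. Prkar1a, a regulatory subunit and the most abundant of the list, had a log2 fold change of 0.76, and the kinase inhibitor gene Pkib one of 1.07, both called higher. Rapgef4, which encodes an Epac protein, fell from 403 ± 32.2 to 193 ± 3.57 CPM.

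Of 15 phosphodiesterase genes that act on cyclic AMP, 5 were higher and 3 lower, beside 21.3% and 23.4% over all tested genes. The list median log2 fold change was 0.12, from 0.01 to 0.55 over the alternatives. The counts were 10 and 2 with the offset and 4 and 5 with upper-quartile scaling. Over all genes the offset gave 5742 higher and 2016 lower of 14494 with a model, and upper-quartile scaling gave 2741 and 4483. Pde10a, the phosphodiesterase of striatal projection neurons, rose from 192 ± 11 to 367 ± 23.2 CPM and Pde1b, a calmodulin-dependent one, from 63.3 ± 8.26 to 100 ± 11.2. Pde8a, a phosphodiesterase with high affinity for cyclic AMP, fell from 9.71 ± 0.438 to 0.568 ± 0.323 CPM. Of 10 genes of the CREB family and its coactivators, 1 was higher and 4 were lower, beside 21.3% and 23.4% over all tested genes. The list median was -0.30 and ran from -0.41 to 0.06 over the alternatives. The list counts were 4 and 0 with the offset, and 4 and 2 with its robust form. Over all genes with a model the robust form gave 4047 higher and 2543 lower. Atf4, a stress-response relative of CREB, rose from 138 ± 6.26 to 205 ± 14.5 CPM. Creb1 itself fell from 111 ± 13.0 to 71.4 ± 7.94 CPM (-0.63, adjusted p = 0.00096, edgeR), a call that ended with the offset for length and GC content (-0.08, adjusted p = 0.54, edgeR).

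**Figure D3:**
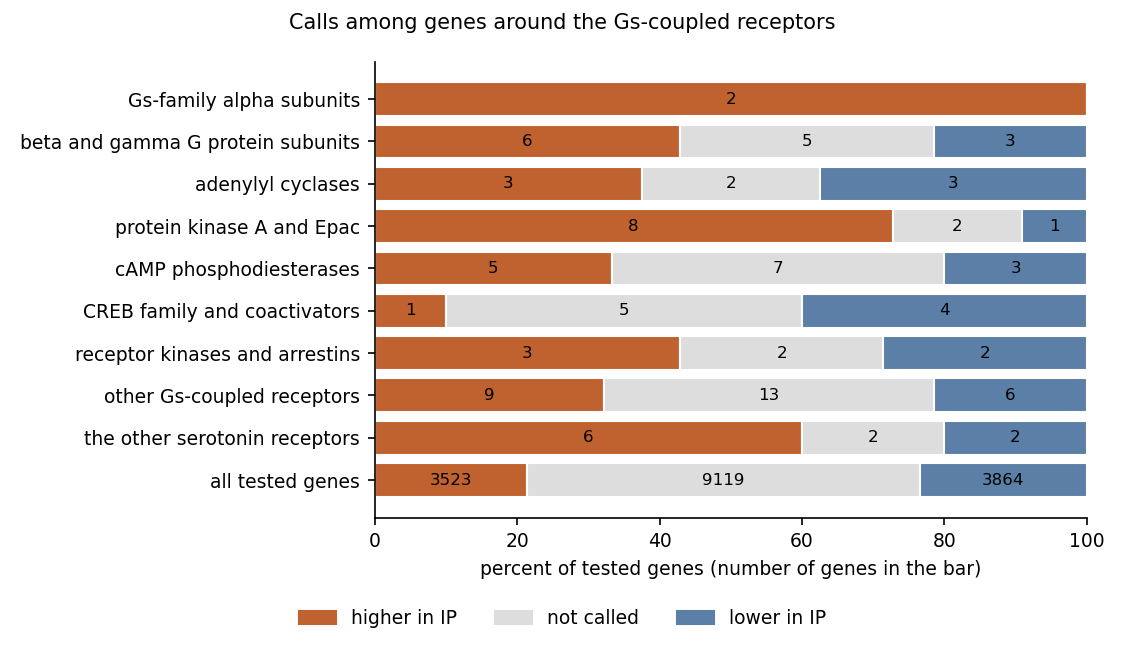
Share of tested genes (percent, horizontal axis) called higher in IP, lower in IP or not called, for 9 lists around the Gs-coupled receptors and for all tested genes; numbers in the bars count genes. Both Gs-family alpha subunits and 8 of 11 protein kinase A and Epac genes were called higher, against 3523 of 16506 over all genes.

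Among genes that end receptor signalling, 3 of 7 receptor kinase and arrestin genes were higher and 2 lower. With the offset, for which 5 of them had a gene model, the counts were 2 and 0, and without IP replicate 2 or any 1 input they were 3 and 1. Grk6, a receptor kinase, rose from 9.92 ± 1.30 to 17.3 ± 2.74 CPM and the arrestin gene Arrb2 from 18.0 ± 2.40 to 30.9 ± 2.38. Proteins reported to bind the receptors were counted by receptor. The shares over all tested genes, 21.3% higher and 23.4% lower, stand beside each count of the main test in this paragraph. With the offset, 5742 of 14494 genes with a model were higher and 2016 lower. Its robust form gave 4047 and 2543, and upper-quartile scaling of all tested genes gave 2741 and 4483. Of 10 tested partners of the Htr4 receptor, 2 were higher and 4 lower (median log2 fold change -0.03). The offset gave 4 and 2, and leaving out IP replicate 2 or any 1 input gave 2 and 2. Slc9a3r1, a PDZ scaffold, fell from 12.4 ± 2.05 to 0.620 ± 0.222 CPM. S100a10, which encodes an adaptor that brings Htr4 and Htr1b receptors to the cell surface, was at 12.2 ± 1.70 CPM in the inputs against 11 ± 2.16 in the IPs (edgeR adjusted p = 0.57, log2 fold change -0.15), and was chosen after its values were seen. Of 11 partners of the Htr6 receptor, 5 were higher and 3 lower (median 0.16, from 0.05 to 0.45 over the alternatives). The counts were 9 and 0 with the offset, 5 and 0 with its robust form, and 3 and 4 with upper-quartile scaling. Without input replicate 1 they were 3 and 3, and without input replicate 2 they were 3 and 2. Rac1, a small GTPase, rose from 574 ± 21.7 to 948 ± 22.5 CPM and the kinase gene Cdk5 from 28.4 ± 5.17 to 46.7 ± 3.87. Nf1 fell (log2 fold change -0.36, adjusted p = 0.0043, edgeR) and turned positive with the offset (0.21, adjusted p = 0.044, edgeR). Of 8 partners of the Htr7 receptor, 3 were higher and 2 lower (median 0.35), and 3 and 1 without input replicate 2. They include Htr1a, which forms heterodimers with it, and Gna12, an alpha subunit of another G protein class that it engages, which fell from 20.7 ± 1.14 to 7.04 ± 1.29 CPM.

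Other receptors that signal through Gs gave 9 genes higher and 6 lower among 28 tested of 38 in the files. Over all tested genes 21.3% were higher and 23.4% lower. The list had a median log2 fold change of 0.13, from -0.04 to 0.50 over the alternatives. Leaving out input replicate 3 gave 5 higher and 3 lower, and the offset for length and GC content gave 12 and 4. Over all genes, leaving out input replicate 3 gave 2910 and 3109, and the offset gave 5742 and 2016 of 14494 with a model. The called genes of this list that changed most rested on few reads. Mc3r, a melanocortin receptor, had 0 to 4 reads in each input and 14 to 113 in each IP. Crhr2, a receptor for corticotropin-releasing factor peptides, had 1 to 12 and 41 to 57. Both were called higher, and both calls were lost in several alternatives, with adjusted p of up to 0.069 for Mc3r and 0.17 for Crhr2 (edgeR). Mc1r, another melanocortin receptor, went the other way, with 14 to 58 reads in each input and 1 in each IP. Adcyap1r1, which the naming rule also takes, was called lower (log2 fold change -0.25, adjusted p = 0.047, edgeR). That call was lost in 10 alternatives, among them leaving out any 1 library, and the sign turned in 2. The adenosine receptor gene Adora2a rose from 5.27 ± 1.64 to 28.1 ± 5.84 CPM and the dopamine receptor gene Drd1 from 25.6 ± 0.427 to 54.8 ± 15.3. Both are receptors of striatal projection neurons and were chosen after their values were seen.

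Marker genes of several cell groups differed between IP and input along with the receptors. Over all tested genes 21.3% were higher and 23.4% lower. Some genes count in several lists. Adcy5, Gng7, Pde10a, Drd1 and Adora2a, given above, are also counted as striatal markers. Calb2 is counted as a hippocampal, a thalamic and an interneuron marker. Of 16 striatal projection neuron markers, 13 were higher and 1 lower, and their summed level was 943 to 1058 CPM in the inputs and 1850 to 2389 in the IPs. Isl1, a transcription factor of that lineage, rose from 1.09 ± 0.353 to 7.83 ± 3.92 CPM and the tachykinin gene Tac1 with a log2 fold change of 2.69, while the signalling regulator Rgs9 fell (-1.43). Of 13 hippocampal neuron markers, 8 were higher and 1 lower (6 and 0 without input replicate 3), with sums of 324 to 383 CPM in input and 587, 764 and 486 in IP replicates 1 to 3. Of 10 pyramidal neuron markers, 3 were higher and 1 lower, and Neurod2 is in both the hippocampal and the pyramidal list. The pyramidal sum was 4334 to 4858 CPM in input and 4733, 6502 and 5135 in IP replicates 1 to 3. Both sums and Htr4 were highest in IP replicate 2. Without that library the hippocampal median log2 fold change went from 1.52 to 0.36. The part of these markers in the level of Htr4 was not tested, and leaving out IP replicate 2 gave Htr4 a log2 fold change of 1.24 (edgeR adjusted p = 0.00019).

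Of 11 deep-layer pyramidal markers, 9 were higher and 1 lower, with sums of 511 to 564 CPM in input and 1033 to 1073 in IP. For 12 interneuron markers the counts were 6 and 0, with sums of 1375 to 1517 and 1765 to 2308 CPM. Of 12 pan-neuronal markers, 9 were higher and 1 lower, and of 10 thalamic neuron markers 3 were higher and 5 lower. All 8 astrocyte, 8 oligodendrocyte, 6 oligodendrocyte precursor and 8 microglial markers were lower. Astrocyte markers summed to 358 to 368 CPM in the inputs and to 23.7 to 29.5 in the IPs. All 6 tested endothelial and mural markers were lower, but 3 of 6 without input replicate 2 and 4 of 6 with the replicate block. Of 3 tested choroid plexus markers 2 were higher and 1 lower, and the higher count was 1 without IP replicate 2 or any 1 input. The part of these differences in the values of Htr4 and Htr7 was not tested.

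Genes with a pattern over the 6 libraries most like each receptor were found by the root mean square (RMS) difference of log2 CPM, each gene centred on its mean, among genes with a mean of at least 5 CPM. For Htr4 the closest of 9672 genes were Ccdc92 (RMS difference 0.0617), Ehd3 (0.0738), Wdr83os (0.0913), Pcdh8 (0.101) and Tmem150c (0.110). Ehd3 encodes a protein of endosomal recycling and Pcdh8 a protocadherin. For Htr7 the closest were Alas1 (0.0459), Map1s (0.0476), Dtx1 (0.0530), Pik3cd (0.0554) and Dctn3 (0.0570). Alas1 encodes an enzyme of heme synthesis and Pik3cd a lipid kinase subunit. For Htr6 the closest, Oma1, was at 0.349, farther than the fifth gene of either other list. These are descriptions over 6 libraries that share lane and group.

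The direction and size of the 3 fold changes were compared over the other settings that were run. Htr4 was called higher in all 18, with log2 fold changes from 1.23 to 1.67 and adjusted p from 9.9e-12 (DESeq2) to 0.001 (without input replicate 2, edgeR). Htr7 was called in 14 of 18, with 0.52 to 0.89. Htr6 was called in none of the 17 in which it could be tested, with -0.71 to 0.24 and adjusted p from 0.46 to 1.0, and it failed the filter of at least 1 CPM in 3 libraries.

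**Figure D4:**
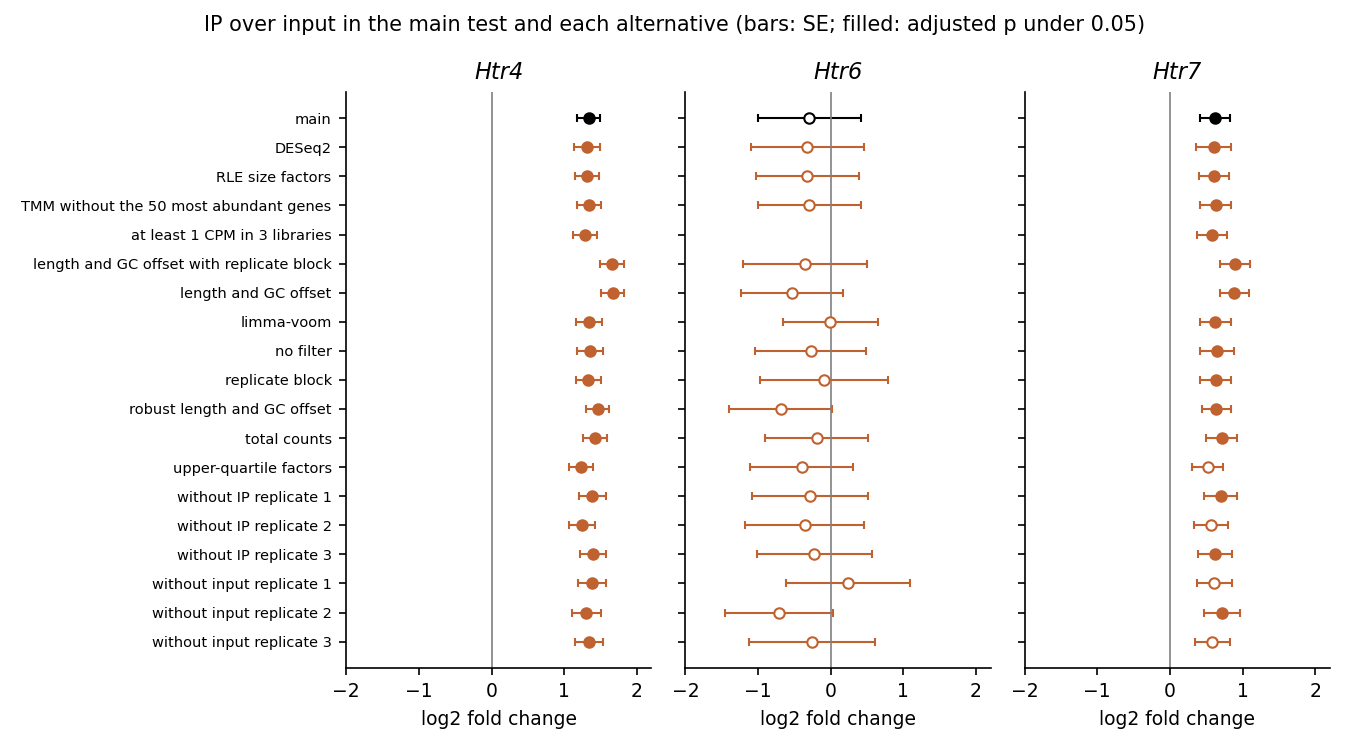
Log2 fold change of IP over input (horizontal axis) with its SE for Htr4, Htr6 and Htr7 under the main test and each alternative (vertical axis); filled points have an adjusted p under 0.05. Htr4 stays between 1.23 and 1.67, Htr7 between 0.52 and 0.89 with 4 open points, and Htr6 runs from -0.71 to 0.24.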

How the data were processed

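Each library has 1 deposited file of raw counts, a whole number of reads for every gene symbol, and its values show no normalization by the authors. The submitters' processing notes name STAR 2.0.0e, HTSeq and the build mm10. The sources used here give neither the annotation, the HTSeq version nor its strand setting. Rows that name no gene stayed out of library sizes and tests: no feature (16.7 to 18.1% of an input file, 8.60 to 8.92% of an IP file), ambiguous (8.12 to 9.83% and 1.77 to 1.91%), not uniquely aligned (21.1 to 23.3% and 32.9 to 35.7%) and a row called unknown (at most 1.63e-06%).

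Samples were grouped by their titles. The test on counts was the quasi-likelihood test of edgeR 4.0.16, in R 4.3.3: TMM scaling, filterByExpr, a group term, two-sided, Benjamini-Hochberg adjusted p under 0.05 over 16506 genes. The script was tested on simulated data. Read ratios had 0.5 added to each count and were compared by exact permutation. Lengths, GC content and coordinates came from GENCODE M21 (GRCm38), with models for 14494 of the tested genes.

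The members and gene lists were chosen with earlier results of these data known. Named genes are the 3 members, any other serotonin receptor and, per list, the 2 called members that changed most in the commoner direction, the 1 with the largest opposite change and the one with the highest CPM, plus 5 most-like genes per member. Not every gene that the rule takes is printed.

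Replicate number equals sequencing lane in the labels, so the number marks a lane shared by 1 input and 1 IP library. Deviations of same-numbered libraries from their group means correlated at 0.087, 0.061 and 0.043 across genes. Chi-square per degree of freedom between libraries of a group was 22.0 to 65.2, so none was a copy of another. The labels do not state that replicates are separate animals, so the p-values reflect the spread among these samples alone, and that may be technical.

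Other settings tried were limma-voom (limma 3.58.1), DESeq2 1.42.0, RLE, upper-quartile and total-count scaling, TMM without the 50 most abundant genes, 2 other filters (at least 1 CPM in 3 libraries, and none), the replicate block, an offset for length and GC content with and without the block, and leaving out each library. A robust form of the offset was added after the data were seen.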

Additional observations from a re-analysis of the deposited data

How the results depend on the processing

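Of the results tested across genes, Htr4 kept its direction and call in all 18 alternatives. Leaving out 1 library gave log2 fold changes of 1.24 to 1.40 for Htr4, 0.57 to 0.71 for Htr7 and -0.71 to 0.24 for Htr6, which turned positive without input replicate 1. The call of Htr7 was lost with upper-quartile scaling (0.52, adjusted p = 0.064, edgeR) and without input replicate 1, input replicate 3 or IP replicate 2. With the replicate block, log2 fold changes were 1.33 for Htr4 (adjusted p = 9.3e-05), 0.63 for Htr7 (adjusted p = 0.034) and -0.10 for Htr6 (adjusted p = 0.94, edgeR), and 3607 genes were higher and 3966 lower. Among the other genes named with a fold change or call, the block ended the call of Htr1b alone (adjusted p = 0.067).

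The offset for length and GC content moved the median of all tested genes by 0.32 (0.31 with the replicate block), the robust offset by 0.12 and upper-quartile scaling by -0.11, and values under these are relative to those shifts. Without a filter more genes were tested and their median moved by -0.16, while Htr4 was at 1.35 and Htr7 at 0.64. Genes higher in IP numbered 5742 with the offset and 5776 with the replicate block as well, and genes lower numbered 2016 and 2082. With the robust offset 4047 were higher and 2543 lower, and with upper-quartile scaling 2741 were higher and 4483 lower. Leaving out 1 library gave 5838 to 7488 genes called, the fewest without input replicate 2. The cause of these changes was not tested.

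For 45 of the other genes compared over the alternatives, 752 of 806 values kept direction and side of the threshold. Of the rest, 47 lost the call and 7 changed sign, all of uncalled genes. Those 45 leave out some genes that the naming rule takes, among them the uncalled Oma1 and Pcdhga9, whose sign changed in 5 and 11 alternatives. They also leave out Map1b, Nf1 and Adcyap1r1, which were called lower in the main test and turned positive with the offset. Map1b went from -0.33 to 0.26 (adjusted p = 0.0046 and 0.0037, edgeR) and Nf1 from -0.36 to 0.21 (adjusted p = 0.0043 and 0.044, edgeR). Adcyap1r1 went from -0.25 to 0.04 (adjusted p = 0.047 and 0.75, edgeR). Leaving out single libraries also ended calls of Htr1d (IP replicates 1, 2 and 3, input replicates 2 and 3), Htr1b (IP replicate 2, any input), Htr2b (IP replicates 2 and 3, any input), Adcy7 (IP replicate 3, any input), Mc3r (IP replicate 3, input replicates 1 and 2), Crhr2 (IP replicates 1 and 2, input replicates 2 and 3) and Slc18a2 (IP replicate 1, input replicates 2 and 3), with adjusted p of up to 0.16, 0.16, 0.14, 0.13, 0.069, 0.17 and 0.22 over all their alternatives. Htr5a turned positive with the offset (0.19, and 0.20 with the replicate block), and it ranged from -0.24 to 0.00062 when 1 library was left out. Htr1f was 0.0095 with the offset and -0.43 to 0.054 when 1 library was left out, and S100a10 was -0.25 to 0.0082. Log2 differences of the read ratios ranged from 0.97 to 1.98 (Htr4 to Htr6), 0.59 to 0.76 (Htr4 to Htr7) and -1.39 to -0.21 (Htr6 to Htr7) when 1 library was left out. With the replicate block the exact sign-flip p cannot go below 0.25. Htr6 had 13 to 44 reads per library, and its inputs varied by more than counting error.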
